A study of Mus musculus with 12 samples.

Results

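Nat10, Thumpd1 and Sirt7 are the gene of the enzyme that writes N4-acetylcytidine (ac4C) into RNA, the gene of its tRNA-binding partner, and the gene of a deacetylase that works in the same compartment. They were chosen by gene symbol, and all 3 were found among the 14852 genes of the authors' table of input RNA, together with 9 of the 19049 ac4C peaks in the authors' peak table. Samples came from ID8, an ovarian cancer cell line of the mouse that arose from ovarian surface epithelium, either treated with cisplatin, a platinum drug that crosslinks DNA, or left as control. RNA fragments were sequenced both as they were (input) and after immunoprecipitation for ac4C (IP), giving 4 groups of 3 libraries (cisplatin IP, cisplatin input, control IP and control input). Neither dose nor exposure time is stated in the labels, and it is not said whether replicates came from separate cultures, so a p-value here reflects only how these libraries vary, which may be technical.

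NAT10 is a nucleolar acetyltransferase that uses acetyl-CoA and ATP to acetylate cytidines in small-subunit ribosomal RNA and in serine and leucine tRNAs, and ac4C has also been reported in mRNA. In tRNA it acts together with THUMPD1, an adaptor whose THUMP domain binds tRNA. In ribosomal RNA it belongs to the small subunit processome, the particle that folds and cleaves the precursor of the small ribosomal subunit. SIRT7 is an NAD-dependent deacetylase of the sirtuin family that is enriched in the nucleolus and promotes transcription by RNA polymerase I.

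The 3 genes lie on the minus strand of chromosomes 2, 7 and 11. The 100 bases before the start of each gene are shown to set the annotated promoters side by side. They come from RefSeq (GRCm38.p6), 5′ to 3′, and capitals mark the motif letters named after them. Whether ID8 cells use these annotated starts was not tested.
Nat10, chr2:103761271-103761370: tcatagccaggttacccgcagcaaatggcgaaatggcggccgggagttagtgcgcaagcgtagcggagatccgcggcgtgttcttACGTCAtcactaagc
Thumpd1, chr7:119723620-119723719: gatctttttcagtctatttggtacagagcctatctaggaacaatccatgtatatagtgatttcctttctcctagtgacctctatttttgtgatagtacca
Sirt7, chr11:120625015-120625114: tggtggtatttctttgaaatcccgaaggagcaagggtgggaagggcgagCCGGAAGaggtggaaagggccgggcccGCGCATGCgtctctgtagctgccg
The stretches of Nat10 and Sirt7 held 58% and 62% G and C, and that of Thumpd1 held 36%. Several motifs, chosen after the sequences had been read, were searched on both strands from 250 bases before to 50 bases after the start. CACGTG (E-box) was in none of the 3 windows, and the share over all 32851 RefSeq promoter windows was 7.15%. TGACGT, part of the cyclic AMP response element, lay on the opposite strand of Nat10 at bases -15 to -10 from the start, and 7.51% of all windows held it. Sirt7 held CCGGAAG, the core bound by ETS factors, at bases -51 to -45 and again at bases 19 to 25 after the start (8.86% of all windows). Sirt7 also held GCGCATGC, part of the NRF1 motif, at bases -24 to -17 (2.71% of all windows) and GGGCGG, the GC box, at bases -214 to -209 (35.7% of all windows). None of these matches overlapped another, and the Thumpd1 window held no match to any of them.

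Sirt7 RNA rose in cisplatin-treated cells, to 7.18 ± 0.449 FPKM against 3.23 ± 0.332 FPKM in control cells, a 2.23-fold difference, whereas mean FPKM differed 1.12-fold for Nat10 and 1.17-fold for Thumpd1. FPKM are fragments scaled to gene length and to mapped fragments per library, and all levels with ± are means and SD of 3 libraries. The difference in Sirt7 is that of a bulk culture, in which more cells with the RNA and more RNA per cell cannot be told apart. All 3 genes passed the test across genes described below, where 81.3% of the 11449 genes tested passed and 40.1% were higher in cisplatin, so passing sets none of them apart.

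Nat10, the ac4C writer (ENSMUSG00000027185, chr2:103721258-103762954, mm10), measured 6.92, 7.01 and 7.51 FPKM in cisplatin replicates 1 to 3 and 6.36, 6.60 and 6.09 FPKM in control replicates 1 to 3. Every cisplatin library lay above every control library, by a margin of the same order as the spread inside each group. Of all tested genes, 84.2% had no overlap between the groups, in either direction. The levels rested on 1210, 1540 and 1192 fragments in cisplatin and 1034, 1088 and 949 fragments in control libraries, and the counting error of the lowest count was 3.25%. The log2 change was 0.15 (SE 0.053, 95% interval 0.02 to 0.27, limma adjusted p = 0.0346), and 16.1% of the tested genes had a smaller change in either direction. For each of the 3 genes an exact permutation test over the 6 libraries (two-sided) returned p = 0.1, the smallest it allows. The limma call of Nat10 did not hold with every library scaled to the same total (log2 change 0.0607, adjusted p = 0.314), without control replicate 3 (0.12, adjusted p = 0.113), without control replicate 1 (0.15, adjusted p = 0.0797) and without cisplatin replicate 3 (0.12, adjusted p = 0.0771). At its 5′ end the widest RefSeq span of Nat10, which reaches beyond the start used for the sequence above, shares 10 bases with Caprin1, which encodes an RNA-binding protein, and whether the counting used strand is not stated in the labels.

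Thumpd1 (ENSMUSG00000030942, chr7:119715093-119723619), the tRNA adaptor gene, measured 45.2, 42.7 and 50.1 FPKM in cisplatin replicates 1 to 3 and 38.5, 39.6 and 39.9 FPKM in control replicates 1 to 3. The groups did not overlap, and the cisplatin libraries were the more scattered, with an SD of 3.80 FPKM against 0.767 FPKM in control. Non-overlap was the common case, since it held for 84.2% of the tested genes. The log2 change was 0.22 (SE 0.058, 95% interval 0.08 to 0.36, limma adjusted p = 0.00982), on 10533 fragments in cisplatin and 7927 fragments in control. This call was lost with a common sum (0.12, adjusted p = 0.0796) and with quantile normalization (0.0572, adjusted p = 0.4).

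Sirt7 (ENSMUSG00000025138, chr11:120618371-120625014), the nucleolar deacetylase gene, measured 7.08, 7.67 and 6.78 FPKM in cisplatin replicates 1 to 3 and 3.41, 2.84 and 3.42 FPKM in control replicates 1 to 3. The lowest cisplatin library, at 6.78 FPKM, lay far above the highest control library, at 3.42 FPKM, where 84.2% of the tested genes had no overlap. The log2 change of Sirt7 was 0.95 (SE 0.076, 95% interval 0.77 to 1.13, limma adjusted p = 1.54e-05) on 2861 fragments in cisplatin and 1113 fragments in control. Of the tested genes, 88.4% had a lower log2 change than Sirt7, and 74.5% had a smaller change in either direction. Over the alternative settings run, the Sirt7 log2 change was 0.87 to 1.19 and its call held in each. In the authors' deposited table the log2 fold changes were 0.17 for Nat10, 0.23 for Thumpd1 and 1.16 for Sirt7, with adjusted p of 0.0353, 0.000575 and 5.15e-26. How those folds were computed is not stated in the headers, and log2(FPKM + 1), used for the other changes given here, understates the change of weakly expressed genes.

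**Figure D1:**
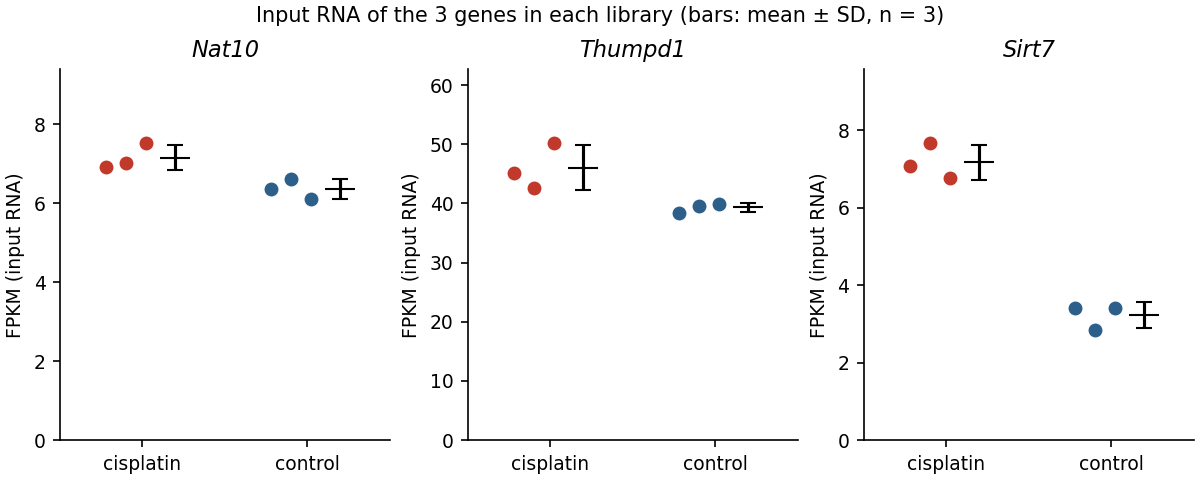
Input RNA of Nat10, Thumpd1 and Sirt7 in FPKM (vertical axes, each from 0) in the 3 cisplatin (left) and 3 control (right) libraries, with points for libraries and bars for mean ± SD (n = 3). Sirt7 stands at 6.78 to 7.67 FPKM in cisplatin and 2.84 to 3.42 FPKM in control. The groups of Nat10 and Thumpd1 lie close together without overlap, as held for 84.2% of the tested genes.

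The order of the 3 levels, which FPKM allows since they are per length, differed between the treatments. In cisplatin libraries Thumpd1 was highest at 46.0 FPKM, and Sirt7 (6.78 to 7.67 FPKM) and Nat10 (6.92 to 7.51 FPKM) overlapped. In control libraries Thumpd1 was highest at 39.3 FPKM, Nat10 followed at 6.35 FPKM and Sirt7 was lowest at 3.23 FPKM, and no pair overlapped. Among the tested genes Nat10 exceeded 52.9% in cisplatin and 48.9% in control, Thumpd1 exceeded 90.9% in cisplatin and 90.5% in control, and Sirt7 exceeded 53.1% in cisplatin and 29.9% in control.

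Ratios within a library do not depend on the scaling between libraries, apart from the added 1 where log2 is used. The FPKM of Sirt7 over that of Nat10 was 1.02, 1.09 and 0.903 in cisplatin replicates 1 to 3 and 0.537, 0.431 and 0.561 in control replicates 1 to 3. On log2(FPKM + 1) this ratio was higher by 0.81 in cisplatin, and that of Sirt7 to Thumpd1 by 0.74, with no overlap between groups in either. Each had an exact permutation p of 0.1, the smallest possible, and 0.125 adjusted over the 5 ratios computed. The ratio of Nat10 to Thumpd1 was -2.53 ± 0.072 in cisplatin and -2.46 ± 0.063 in control (SD, n = 3), a difference of -0.07 with overlapping groups (exact permutation p = 0.2, 0.2 adjusted over the 5 ratios computed). Leaving out a library in turn gave -0.11 to -0.04 for that difference. Thumpd1 stood above the writer gene in every library, with 6.09 to 6.68 FPKM of Thumpd1 per FPKM of Nat10 in cisplatin and 6.00 to 6.55 in control.

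Genes of the small subunit processome and of small-subunit rRNA maturation, the complex to which NAT10 belongs, rose in 41 of 51 cases and fell in 2, where 40.1% of all tested genes rose and 41.1% fell. Their median log2 change was 0.52, against a median of -0.003 over all tested genes. The 2 lower genes became 5 with a common sum. Among those at 5 FPKM or more, Tsr1 and Noc4l, which act in small subunit assembly, rose most. Tsr1 rose by 2.01 on the log2 scale, and Noc4l rose to 26.4 ± 1.89 FPKM in cisplatin against 6.66 ± 0.148 FPKM in control. Utp15 and Dcaf13, components of the processome, fell by 0.52 and 0.39 on the log2 scale. In 41 of the 51 genes the log2 change was above the 0.15 of Nat10. The level of Nat10 relative to the median of these genes was -1.78, -1.68 and -1.58 in cisplatin replicates 1 to 3 and -1.09, -0.99 and -1.12 in control replicates 1 to 3 (log2 ratio per library). It was thus lower by 0.62 in cisplatin, with no overlap between the groups (exact permutation p = 0.1, the smallest possible, and 0.125 adjusted over the 5 ratios). That median is of levels in each library, so 0.62 is not the gap between the changes of 0.15 and 0.52.

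RNA polymerase I subunits and their transcription factors, the machinery that SIRT7 acts with, rose in 13 of 21 cases and fell in 6, where 40.1% of all tested genes rose and 41.1% fell. Their median log2 change was 0.57. The 6 lower genes became 3 without control replicate 1 and 1 with a filter at 5 FPKM. Taf1a, a subunit of the selectivity factor of polymerase I, rose by 1.67 on the log2 scale. The other subunits of that factor went both ways. Taf1d had a log2 change of 0.72, while Taf1b, Tbp and Taf1c, each under 5 FPKM, had -1.06, -0.81 and -0.30. Tbp reached 1 FPKM only in control libraries, so it entered the test only through its higher group. It left the test on leaving out any control replicate. Polr2e, a subunit shared by the nuclear RNA polymerases, rose to 24.0 ± 0.711 FPKM in cisplatin against 8.89 ± 0.974 FPKM in control. Ubtf, which encodes the upstream binding factor of ribosomal DNA, fell by 0.22 and the shared subunit gene Polr2k by 0.78. Sirt7 relative to the median of this list was -1.18, -1.05 and -1.15 in cisplatin replicates 1 to 3 and -1.23, -1.52 and -1.31 in control replicates 1 to 3. The difference was 0.23, with groups that lay close but did not overlap (exact permutation p = 0.1, 0.125 adjusted over the 5 ratios). Here too the median is that of the levels in each library, not of the changes.

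**Figure D2:**
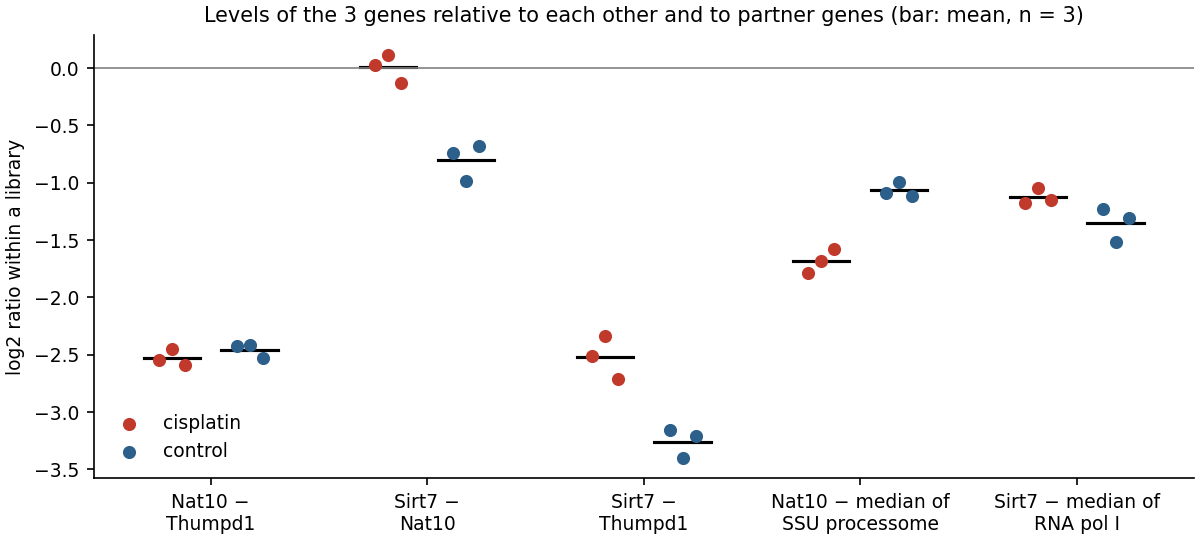
Log2 ratio within a library (vertical axis, from log2(FPKM + 1)) for 5 ratios, with points for the 3 cisplatin (left of each pair) and 3 control libraries and bars for means; SSU processome is the small subunit processome list. Sirt7 relative to Nat10 is near 0 in cisplatin and -0.80 in control, while Nat10 relative to the processome genes is -1.68 in cisplatin and -1.07 in control.

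The other sirtuins moved in both directions, with 4 of 6 higher and 2 lower, where 40.1% of all tested genes were higher and 41.1% lower, and none had as large a rise as Sirt7. Sirt5 reached 1 FPKM only in cisplatin libraries and Sirt3 only in control libraries, so each entered the test only through its higher group. Without any of the 3 cisplatin replicates in turn Sirt5 left the test and 3 genes were higher. Without any of the 3 control replicates in turn Sirt3 left the test and 1 gene was lower. A filter at 5 FPKM left 0 higher and 1 lower. Sirt1, a nuclear deacetylase, was at 2.33 ± 0.151 FPKM in cisplatin against 1.59 ± 0.152 FPKM in control, and Sirt6, a chromatin deacetylase, was at 2.29 ± 0.111 FPKM in cisplatin against 1.36 ± 0.126 FPKM in control. The mitochondrial Sirt4 and Sirt5 rose by 0.44 and 0.42 on the log2 scale. Sirt5 was at 1.31 ± 0.0347 FPKM in cisplatin against 0.735 ± 0.0742 FPKM in control. Sirt3, the main mitochondrial deacetylase gene, fell to 0.536 ± 0.194 FPKM in cisplatin against 2.54 ± 0.261 FPKM in control, and the mostly cytoplasmic Sirt2 fell by 0.39. Among 4 other THUMP domain genes and partners, 3 rose, where 40.1% of all tested genes did, namely Thumpd3 by 0.35, Trmt11 by 0.44 and Trmt112, an activator of several methyltransferases, by 0.49 on the log2 scale, while Thumpd2 had a log2 change of -0.09 (limma adjusted p = 0.526).

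Genes that supply the substrates of the writer and the deacetylase were mostly lower. Of 15 genes of acetyl-CoA and coenzyme A supply, 2 rose and 11 fell, where 40.1% of all tested genes rose and 41.1% fell, with a median log2 change of -0.51. The 2 higher became 1 with a common sum and on leaving out replicate 1 of either treatment or replicate 3 of control. Pank1, a pantothenate kinase gene at the head of coenzyme A synthesis, was at 0.290, 0.0710 and 0.344 FPKM in cisplatin replicates 1 to 3 and 5.41, 5.73 and 5.76 FPKM in control replicates 1 to 3. Pank1 and Acss2, of the same list, reached 1 FPKM only in control libraries, so they entered the test only through their higher group. Both left the test without any of the 3 control replicates in turn, and 9 genes were then lower. Ppcs, of a later step of the pathway of Pank1, fell by 1.23 on the log2 scale. Pdhb of the pyruvate dehydrogenase complex rose by 0.37 and the carnitine acetyltransferase gene Crat by 0.19 on the log2 scale. Dlat and Pdhx of the same complex fell, with log2 changes of -0.52 and -0.45, and Pdha1 had 0.05 (limma adjusted p = 0.127). Of 6 tested genes of NAD supply, 1 rose and 5 fell, against the same shares of all tested genes, and a filter at 5 FPKM left 0 higher and 1 lower. Nampt, the rate-limiting enzyme of NAD salvage, fell to 13.4 ± 0.833 FPKM in cisplatin against 20.5 ± 0.713 FPKM in control, the nicotinamide riboside kinase gene Nmrk1 fell by 1.15, Naprt by 0.92, Nadsyn1 by 0.68 and Nmnat3 by 0.21, and the nuclear NAD synthesis gene Nmnat1 rose by 0.32 on the log2 scale.

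Of 4 genes of cytosolic and mitochondrial seryl- and leucyl-tRNA synthetases, 3 fell and none rose, where 41.1% of all tested genes fell. The 3 became 2 by voom on recovered fragments, with a filter at 5 FPKM and without any library in turn except cisplatin replicate 2. Lars, the cytosolic leucyl-tRNA synthetase gene, fell to 27.5 ± 2.31 FPKM in cisplatin against 42.1 ± 2.00 FPKM in control, its mitochondrial counterpart Lars2 fell by 0.37 and Sars by 0.09 on the log2 scale. The mitochondrial seryl-tRNA synthetase gene Sars2 had a log2 change of -0.01 (limma adjusted p = 0.901). Other acetyltransferases of the GNAT fold, to which the acetyltransferase domain of NAT10 is related, rose in 7 of 19 cases and fell in 6, which is not above the 40.1% of all tested genes that rose and the 41.1% that fell. Nat14, among the lower, reached 1 FPKM only in control libraries, so it entered the test only through its higher group. A filter at 5 FPKM left 3 lower. Kat2a, a histone acetyltransferase gene, rose by 0.54 and Nat9 by 0.53, while Naa35 of the NatC complex fell by 0.81 and the cohesin acetyltransferase gene Esco1 by 0.44 on the log2 scale.

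**Figure D3:**
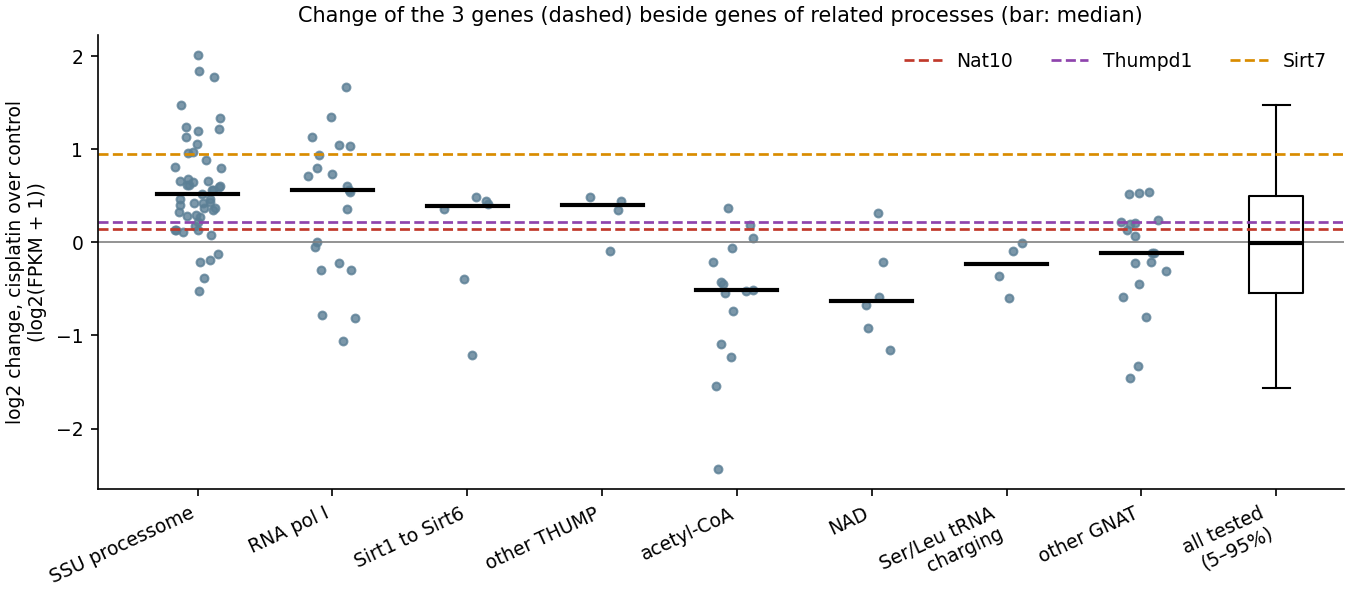
Log2 change in input RNA, cisplatin over control on log2(FPKM + 1), of each tested gene (points) in 8 lists, with bars for list medians and a box for all 11449 tested genes (quartiles, whiskers at 5% and 95%). The dashed lines mark Nat10 at 0.15, Thumpd1 at 0.22 and Sirt7 at 0.95; the Nat10 line lies under the medians of the processome (0.52) and RNA polymerase I (0.57) lists.

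The genes whose profile over the 6 input libraries was nearest to each member, by Euclidean distance of log2(FPKM + 1) centred on the gene's mean, were Rpl21, Tmem245 and Polr3gl for Nat10, at distances of 0.0522 to 0.0593. Rpl21 encodes a ribosomal protein of the large subunit, for which reads of pseudogene copies are uncertain. For Thumpd1 they were Hmmr, a hyaluronan receptor and spindle gene, Vps26a, a retromer subunit gene, and Ktn1, at 0.0281 to 0.0506. For Sirt7 they were Chaf1b, a subunit of chromatin assembly factor, Abhd17b and Dlk2, at 0.0698 to 0.106. Chaf1b was at 9.36 ± 0.395 FPKM in cisplatin and 4.46 ± 0.334 FPKM in control.

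The IP libraries enter through the authors' peak table, which gives each peak a fold enrichment, read here as IP over input, a log2 difference for treatment, and a log10 adjusted p for each of these, with no value per library. The headers do not state the direction of that log2 difference, so its sign and size are given here without saying which treatment is higher. Of the 9 peaks of the 3 genes, 3 passed an adjusted p of 0.05 for the difference, 2 with a positive and 1 with a negative sign, where 46.2% of all peaks passed, 36.5% with a positive and 9.62% with a negative sign. No sequence of these peaks is shown, and their positions are outer ends on mm10, which can include introns.

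Nat10 carried 5 peaks, a number that 8.30% of the 8797 genes with a peak reached or passed, all of the class exon. In the authors' deposited table the peak at chr2:103732175-103733018, in 2 blocks with 181 exonic bases, had a log2 difference of 5.79 with a log10 adjusted p of -4.23 and a fold enrichment of 6.92. It was the only Nat10 peak that passed, where 36.3% of all peaks of the class exon passed, 8.89% with a negative sign. Its difference exceeded in size those of 96.1% of all peaks and 91.5% of all peaks that passed. The strongest enrichment in the authors' deposited table, 16.5-fold, belonged to the peak nearest the 5′ end, which spans 5 blocks from chr2:103743344-103750240 (log2 difference 2.68, log10 adjusted p of -0.77). The peak at the 3′ end, chr2:103721406-103721706, had a fold enrichment of 11.8 and a log2 difference of 4.58 that did not pass in the authors' deposited table (log10 adjusted p of -1.13). Of the others in the authors' deposited table, chr2:103725138-103725849 had a log2 difference of 2.23 (log10 adjusted p of -1.09), and chr2:103734510-103734660 had -2.17 (log10 adjusted p of -0.436). The peak at -2.17 was the weakest of the 5, with a fold enrichment of 2.94 in the authors' deposited table and a log10 adjusted p of -1.16 for the peak itself, which does not reach 0.05. It lies 1491 bases from the peak that passed, which has the opposite sign.

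Thumpd1 carried 3 peaks, and those that passed had opposite signs. In the authors' deposited table the peak of its coding sequence at chr7:119716669-119716788 had a log2 difference of 5.61 (log10 adjusted p of -5.36) and a fold enrichment of 11.8. The peak of its 3′ untranslated region at chr7:119715777-119715926 had a log2 difference of -1.56 (log10 adjusted p of -7.98) and a fold enrichment of 3.48 in the authors' deposited table. The gap between them is 742 bases. Such a pair was not rare: of 754 genes with a passing peak in both places, 172 (22.8%) had a negative one in the untranslated region and a positive one in the coding sequence, and of 2100 genes with 2 or more passing peaks, 38.1% had both signs. Of all peaks in 3′ untranslated regions 36.2% passed, 8.84% with a negative sign, and of all coding-sequence peaks 56% passed, 10.4% with a negative sign. The other coding-sequence peak, chr7:119718037-119718186, was the most enriched of the 9, at 28.2-fold and above 94.8% of all peaks, with a log2 difference of 0.22 in the authors' deposited table (log10 adjusted p of -0.133).

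Sirt7, whose RNA changed most, carried 1 peak, at chr11:120619808-120619988 in the class exon. Its log2 difference in the authors' deposited table was 1.00 (log10 adjusted p of -0.141) and its fold enrichment 8.23. The peak itself had a log10 adjusted p of -0.355 in the authors' deposited table and so did not reach 0.05, as for 10.7% of all peaks.

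**Figure D4:**
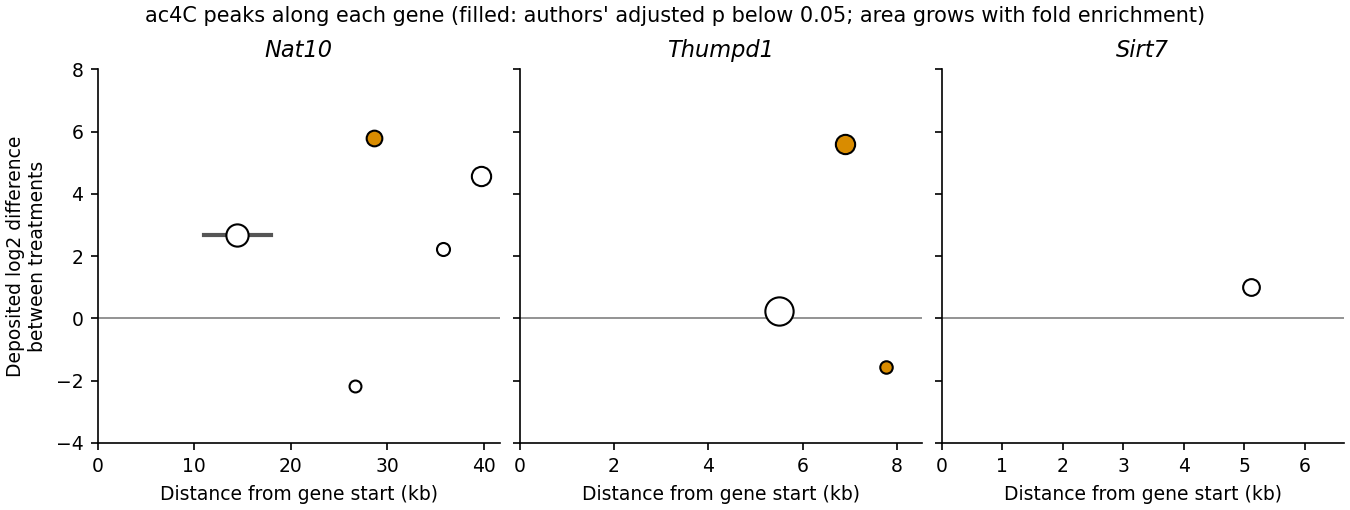
The 9 ac4C peaks by distance from the start of the gene in kb (horizontal axis, bars for outer ends) and by the authors' log2 difference between treatments (vertical axis, direction not stated), with circle area growing with fold enrichment and filled circles for adjusted p under 0.05. Filled circles are 1 Nat10 peak at 5.79 and 2 Thumpd1 peaks at 5.61 and -1.56, and the Sirt7 peak at 1.00 is open.

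The input libraries corresponded to 21437552 to 29280272 fragments in listed genes for cisplatin and 19921365 to 21111362 for control, as recovered from the steps of the FPKM values. Pearson r over the tested genes was 0.989 to 0.996 within a treatment and 0.833 to 0.847 between treatments. The label of an epithelial line was met by Krt8, Krt18, Krt19, Msln, Upk3b and Wt1, and the 7 epithelial and mesothelial markers summed to 2920 to 3259 FPKM in cisplatin and 2064 to 2097 FPKM in control libraries, with Krt7 near 0 in both. Within that list Wt1 was lower, at 12.4 ± 0.598 FPKM in cisplatin and 45.1 ± 1.08 FPKM in control, as was Upk3b, at 61.1 ± 4.76 FPKM in cisplatin and 81.6 ± 1.78 FPKM in control. Of 6 leukocyte markers Cd68, which other cells also express, was listed, at 7.50 to 9.72 FPKM in cisplatin and 2.22 to 2.57 FPKM in control, and of 4 endothelial markers Tek was listed, at 2.55 to 2.81 FPKM in cisplatin and 0.723 to 0.931 FPKM in control. The remaining leukocyte and endothelial markers were not analysed here. The 5 fibroblast markers summed to 17.5 to 19.0 FPKM in cisplatin and 23.7 to 24.6 FPKM in control. Pdgfra and Dcn were lower, Pdgfrb was at 0 in cisplatin and under 0.1 FPKM in control, and Col1a1 was higher, at 5.93 ± 0.0796 FPKM in cisplatin and 4.90 ± 0.256 FPKM in control. Col3a1, under the filter, averaged 0.349 FPKM in cisplatin and 0.0015 FPKM in control. The part of these markers in the differences of the 3 genes was not tested.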

How the data were processed

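Per the labels' protocols, rRNA-depleted, fragmented RNA was split into input and anti-ac4C IP fractions and made into strand-specific paired-end libraries. HISAT2, HOMER, fastp, FastQC and mm10 appear, without roles, in the submitters' processing notes; which program called peaks, the annotation and any use of strand are not stated there. The authors deposited FPKM values per input library, with log2 fold changes and p-values per gene. The deposited peak table holds a p-value, a fold ratio (read as IP over input, which the headers do not spell out), log2 differences, and log10 p scores. A gene entered the test if 3 or more libraries reached 1 FPKM. Testing was done with limma 3.58.1 (R 4.3.3, mean trend) on log2(FPKM + 1), adjusted by Benjamini-Hochberg over all tested genes at 0.05. The fit was first run on simulated data in which few genes changed, unlike here, where 81.3% passed. That run therefore does not vouch for the calls. FPKM fell on whole steps of a single fragment in 14850 of 14852 genes within 0.0001, which gave fragments per gene; their counting errors cover counting only. Libraries with the same replicate number did not deviate together from their group means (correlations 0.0975, -0.116 and 0.0428). These values cannot show whether such libraries shared a culture or batch. The members and lists were chosen with earlier results of these data known. Named list genes are the 2 highest and 2 lowest changes past the threshold with at least 5 FPKM in the higher group, or all genes in lists of up to 6 tested genes. Beside Taf1a and Pdhb, the other listed subunits of their complexes were added, and Acss2 and Nat14 are named for how they entered the test. Other steps used Python 3.11.15 with pandas 2.3.3, numpy 2.4.6, matplotlib 3.10.9 and scipy 1.17.1. Peak starts were converted to counting from 1.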

Additional observations from a re-analysis of the deposited data

How the results depend on the processing

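The limma call of Nat10 (log2 change 0.15) was lost with libraries rescaled to a common sum (0.0607, adjusted p = 0.314) and with the replicate number as a replicate block (0.15, adjusted p = 0.0706). That of Thumpd1 was lost with quantile normalization (0.0572, limma adjusted p = 0.4) and a common sum (0.12, limma adjusted p = 0.0796). FPKM summed to 275195 to 278678 per library in cisplatin and 258545 to 259158 in control. With a common sum the median log2 change of all tested genes went from -0.003 to -0.087. The cause of the lost calls was not tested. The replicate block changed neither the call of Thumpd1 nor that of Sirt7; it moved the lower processome genes to 4, the higher acetyl-CoA genes to 1 and the lower synthetase genes to 2. A filter at 5 FPKM left fewer genes to test, and 5934 of 7230 passed in place of 9303 of 11449. Leaving out libraries in turn gave log2 changes of 0.12 to 0.17 for Nat10, 0.16 to 0.27 for Thumpd1 and 0.89 to 0.99 for Sirt7. The call of Nat10 was lost on leaving out replicate 3 of either treatment or replicate 1 of control. In these runs 7741 to 8666 genes were called. The filter of 3 libraries at 1 FPKM then left 10376 to 10690 genes to test, in place of 11449. In the ratios, leaving out libraries in turn gave -0.11 to -0.04 for Nat10 to Thumpd1 and 0.71 to 0.87 for Sirt7 to Nat10. It gave 0.64 to 0.83 for Sirt7 to Thumpd1 and -0.67 to -0.56 for Nat10 to the processome median. For Sirt7 to the polymerase I median it gave 0.14 to 0.29. The 3 peaks called stayed 3 at an adjusted p of 0.01 and with an absolute log2 difference of at least 1. The IP signal per library was not analysed here, so the spread behind the peak differences is unknown.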

Other observations

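Of all ac4C peaks that passed, 79.2% had a positive difference. The small subunit processome list had 120 peaks in 42 genes, of which 57 passed with a positive and 6 with a negative sign. RNA polymerase I genes had 46 peaks in 19 genes, 28 of them passing with a positive and 4 with a negative sign. The 6 other sirtuin genes had 3 peaks in all, 1 of which passed, with a positive sign. Acetyl-CoA supply genes, whose RNA mostly fell, had 19 peaks in 9 genes, and 10 passed with a positive and 0 with a negative sign. Other GNAT acetyltransferase genes had 34 peaks, 13 passing with a positive and 1 with a negative sign, and the synthetase genes had 7, 4 passing with a positive sign. The 1 peak of NAD supply genes passed with a negative sign, and 0 of the 2 peaks of the other THUMP domain genes and partners passed. Of all peaks, 36.5% passed with a positive and 9.62% with a negative sign, at the authors' adjusted p of 0.05.

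Sirt7 lies between Mafg and Pcyt2, 102 and 423 bases away in the RefSeq spans. Mafg, a small Maf transcription factor gene, had a log2 change of -0.15, and Pcyt2, of phospholipid synthesis, had -0.25. Caprin1, next to the start of Nat10, was at 77.8, 78.0 and 82.2 FPKM in cisplatin and 66.2, 66.5 and 69.2 FPKM in control replicates 1 to 3, a log2 change of 0.23.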
